A study of Drosophila melanogaster with 6 samples.

Results

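The 10 genes described here encode enzymes of glycolysis in *Drosophila melanogaster*: *Hex-A*, *Pgi*, *Pfk*, *Ald1*, *Tpi*, *Gapdh1*, *Gapdh2*, *Pgk*, *Eno* and *Pyk*. They were chosen by name, with earlier results of these data known. A probe set was taken where the platform annotation gave it one of these symbols or an older form. Of the 10 genes, 7 had a probe set of their own, out of 10844 genes named on the array. *Tpi* shared its 1 probe set with *CG1607*, while for *Gapdh2* and *Pyk* no probe set had the symbol, so these were not analysed here. The array's control probe sets for GAPDH were left out of these values.

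Glycolysis splits glucose into pyruvate and yields ATP and NADH on the way. Hexokinase traps glucose in the cell, phosphofructokinase makes the committed and most regulated step, and the enzymes from glyceraldehyde-3-phosphate dehydrogenase onward recover the energy. In insects much of the sugar in the blood is trehalose, which trehalase cleaves to glucose, and in the fly embryo the nuclear receptor ERR is known to switch on glycolytic genes as a set.

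Cells were sorted from wing imaginal discs, the epithelial sacs of the larva from which wing and notum develop, in late larvae. All discs carried E(spl)m4-GFP, a green fluorescent reporter under regulatory DNA of a gene of proneural clusters, the cell groups from which sensory organ precursors arise. Per the labels, about 200 discs were pooled for a sample. GFP-positive samples held every cell brighter than the cells of w1118 discs, and GFP-negative samples held 100000 cells below that limit. Both groups therefore came from discs with the same reporter, with no treatment named, and GFP-negative cells were the mixed remainder of the disc. Each group had 3 samples, hybridised to an array apiece. Nothing in the labels tells whether dissections were separate, and the spread that p-values measure here may thus be technical.

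Each probe set has a Signal, the array software's linear brightness in arbitrary units, scaled to a common target on each array, and a call of Present, Marginal or Absent. The arrays called between 4321 and 5039 of 14010 probe sets Present. *E(spl)m4-BFM*, the reporter's own gene, checked the sort, with a mean signal of 2353 ± 232 over the GFP-positive arrays and 236 ± 163 over the GFP-negative ones (SD, n = 3). Of the markers of the wing disc epithelium, *vg* (4552 ± 1681 and 3808 ± 675), *ap* and *pdm2* were Present on all 6 arrays, and *nub* and *tsh* on none. Where 2 or more arrays of either group gave a Present call, a probe set was compared on the log2(signal + 16) scale with limma, which left 4943 tests. Differences are GFP-positive minus GFP-negative with 95% intervals from that fit, and a gene was called changed at an adjusted p (Benjamini-Hochberg over all 4943) under 0.05. The pseudocount makes folds of dim genes too small. In sorted pools of cells, fewer cells of a type and less RNA per cell cannot be told apart.

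*Pfk*, the gene of phosphofructokinase, rose in GFP-positive cells, 2.48-fold. It was 1 of 7 tested enzymes to pass, against 1.25% of all tested probe sets that were called higher and 2.99% called either way. No enzyme was called lower, against 1.74% of all, and 6 did not pass. With replicate number as a block, 257 of all tested probe sets were called in place of 148, and *Pfk* was still the 1 enzyme called. Of the 7, 6 had a positive difference, where 48.7% of all tested probe sets did, and their median difference was 0.49, against -0.01 over all tested probe sets. All 7 were Present on all 6 arrays, so none entered the test through one group alone.

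**Figure D1:**
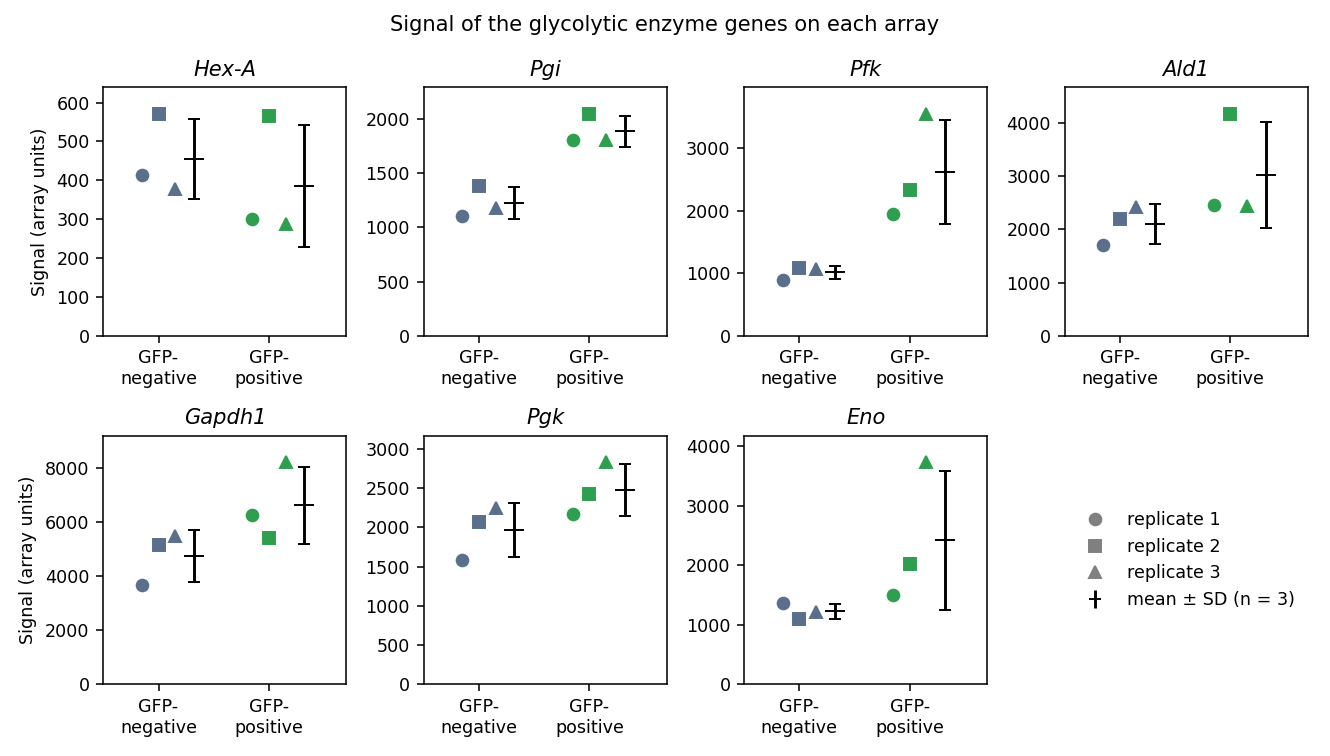
Signal in array units (vertical axis from 0) of the 7 enzymes with a probe set of their own, with 1 point per array, the marker giving the replicate and the bar the mean ± SD of 3 arrays. *Pfk* was between 898 and 1078 in GFP-negative and between 1954 and 3549 in GFP-positive cells, while the groups of *Hex-A* overlap.

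*Pfk* had signals of 1954, 2339 and 3549 in GFP-positive replicates 1, 2 and 3 and of 898, 1078 and 1068 in GFP-negative replicates 1, 2 and 3. Every GFP-positive array was brighter than every GFP-negative one, and GFP-positive replicate 3 was the brightest. The means were 2614 ± 833 and 1015 ± 102 (SD, n = 3), a log2 difference of 1.31 (SE 0.26, interval 0.74 to 1.88, limma adjusted p = 0.0223). Of all tested probe sets, 1.34% had a difference at least as high. The lot of 3 arrays held GFP-negative replicates 1 and 2 and GFP-positive replicate 1, and the lot of 2 held replicate 3 of each group. GFP-positive replicate 2 was the only array of its lot, which gives no comparison. The direction held on each hybridization day and in each lot with both groups. The difference was 1.11 in the pair of arrays hybridised on day 1, 1.41 in the 4 arrays of day 2 (adjusted p = 0.0416), 0.98 in the lot of 3 arrays (adjusted p = 0.436, with 1 residual degree of freedom) and 1.72 in the lot of 2 arrays. The call ended in 4 of the 6 fits that left out an array (adjusted p = 0.0869 for GFP-negative replicate 2, 0.0577 for GFP-negative replicate 3, 0.0576 for GFP-positive replicate 2 and 0.065 for GFP-positive replicate 3). It also ended when no filter on detection calls was set (adjusted p = 0.052).

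*Pfk* also moved apart from the other enzymes on the same arrays. Its log2 value minus the mean of the other 6 was 0.16, 0.05 and 0.68 on GFP-positive replicates 1, 2 and 3 and -0.59, -0.61 and -0.57 on GFP-negative ones. The groups did not overlap in this contrast, which was chosen after the values were seen. The difference of 0.89 had a two-sided exact permutation p of 0.1, the smallest that 3 arrays against 3 can give.

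Of the steps before *Pfk*, hexokinase was lower on average and phosphoglucose isomerase higher, and neither passed. *Hex-A*, the hexokinase gene, had signals of 301, 565 and 289 in GFP-positive and of 413, 571 and 377 in GFP-negative replicates 1, 2 and 3. The groups overlapped, and replicate 2 was the brightest of each group. The log2 difference was -0.27 (interval -0.94 to 0.40, limma adjusted p = 0.746), and it ran from -0.57 to -0.10 without single arrays, lowest in size without GFP-negative replicate 2. The other hexokinase genes on the array, *Hex-C* and *Hex-t2*, were Present on no array. *Pgi*, which turns glucose 6-phosphate into fructose 6-phosphate, had signals of 1803, 2049 and 1809 in GFP-positive and of 1106, 1386 and 1184 in GFP-negative replicates 1, 2 and 3. The groups did not overlap, and the spread within each was small, with means of 1887 ± 140.2 and 1225 ± 144 (SD, n = 3). The log2 difference was 0.62 (SE 0.21, interval 0.16 to 1.08), with an unadjusted p of 0.0127 and an adjusted p of 0.178 by limma. Leaving out any 1 of the 6 arrays moved it between 0.55 and 0.71.

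Relative to the other enzymes, *Hex-A* ran the other way. Its log2 value minus the mean of the other 6 was -2.91, -2.30 and -3.46 on GFP-positive replicates 1, 2 and 3 and -1.86, -1.66 and -2.28 on GFP-negative ones. The groups did not overlap, if narrowly, in this contrast, which was also chosen after the values were seen. The difference of -0.96 had a two-sided exact permutation p of 0.1, again the smallest possible. In the same contrast for *Eno* the groups overlapped (difference 0.38, exact permutation p = 0.4). *Pfk* and *Hex-A* had the highest and the lowest difference of the enzymes, so their distance from the mean of the rest follows largely from that choice.

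*Ald1*, the aldolase gene, splits fructose bisphosphate into triose phosphates. It had signals of 2468, 4173 and 2442 in GFP-positive and of 1698, 2187 and 2418 in GFP-negative replicates 1, 2 and 3. The groups did not overlap, though the nearest arrays lay closer together than any 2 arrays of the GFP-negative group. GFP-positive replicate 2, the only array of its lot, stood far above the rest. The log2 difference was 0.49 (interval -0.10 to 1.08, limma adjusted p = 0.44), 0.24 without that array and 0.01 in the lot of 2 arrays. The probe set shared by *Tpi*, the triose phosphate isomerase gene, and *CG1607* was Absent on all 6 arrays. Its signals were 347, 285.5 and 1750.1 in GFP-positive and 549, 841 and 669 in GFP-negative replicates 1, 2 and 3. It was not tested, and nothing can be said from it about *Tpi*.

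The energy-yielding enzymes had positive differences that did not pass. *Gapdh1*, which oxidises glyceraldehyde 3-phosphate and makes NADH, had signals of 6246, 5423 and 8208 in GFP-positive and of 3656, 5149.6 and 5470.1 in GFP-negative replicates 1, 2 and 3. The groups overlapped by 1 array of each, and the log2 difference was 0.48 (interval -0.07 to 1.02, limma adjusted p = 0.418), or 0.30 without GFP-negative replicate 1 and 0.31 without GFP-positive replicate 3. *Gapdh2* encodes a near relative of this enzyme, and how far its RNA contributes to this probe set was not tested. *Pgk*, whose enzyme makes the first ATP of the pathway, had signals of 2174, 2422 and 2826 in GFP-positive and of 1583, 2067 and 2244 in GFP-negative replicates 1, 2 and 3. These groups overlapped too, and the log2 difference was 0.34 (interval -0.16 to 0.84, limma adjusted p = 0.56), or 0.19 without GFP-negative replicate 1.

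*Eno*, the enolase gene, had signals of 1501, 2027 and 3729 in GFP-positive and of 1364, 1103 and 1211 in GFP-negative replicates 1, 2 and 3. The groups did not overlap, yet GFP-positive replicate 1 lay close to the GFP-negative arrays and replicate 3 far above. The means were 2419 ± 1165 and 1226 ± 131 (SD, n = 3), a log2 difference of 0.87 (interval 0.18 to 1.57) with an unadjusted p of 0.0191 and an adjusted p of 0.228 by limma. It was 0.51 without GFP-positive replicate 3 (adjusted p = 0.487), and in batches it was 0.14 (day 1 pair), 1.24 (day 2, adjusted p = 0.107), 0.29 (lot of 3) and 1.61 (lot of 2).

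**Figure D2:**
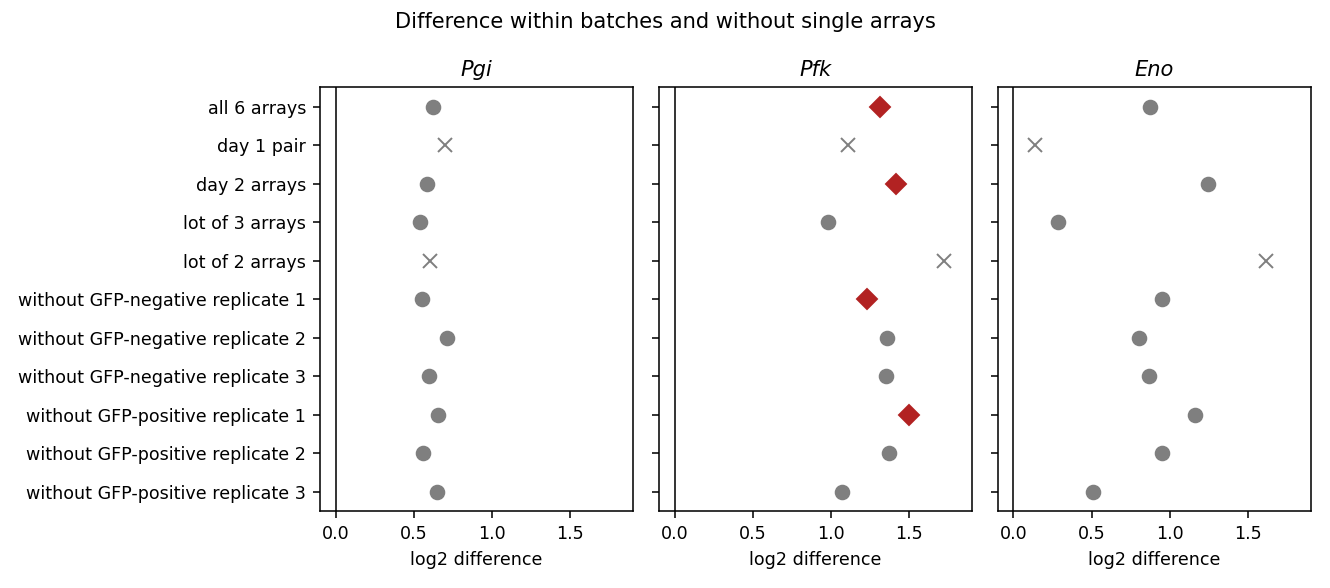
Log2 difference (horizontal axis) of *Pgi*, *Pfk* and *Eno* over all 6 arrays, within each hybridization day and array lot that held both groups, and without each array in turn. Red diamonds passed an adjusted p of 0.05, grey circles did not, and crosses are pairs of arrays with no test. *Pgi* stays near 0.62, *Pfk* runs from 0.98 to 1.72, and *Eno* runs from 0.14 to 1.61.

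Set beside the whole array, 4 of the 7 enzymes (*Pgi*, *Pfk*, *Ald1* and *Eno*) had GFP-positive signals all above the GFP-negative ones, against 9.43% of all tested probe sets (20.8% were apart in either direction). At an unadjusted p under 0.05 there were 3 (*Pgi*, *Pfk* and *Eno*), against 5.95% of all that were higher at that level and 14.0% that differed either way. A difference at least as high as that of *Eno* was seen in 2.59% of all tested probe sets, of *Pgi* in 5.3%, of *Ald1* in 8.74%, of *Gapdh1* in 9.33% and of *Pgk* in 17.0%. The 6 enzymes that did not pass have intervals that reach from -0.94 (*Hex-A*) to 1.57 (*Eno*), so changes of these sizes remain within the error. Scaling the arrays to a common median moved the median over all tested probe sets to -0.12, and the 6 positive differences stayed positive under it (*Pgk* 0.22 at the lowest, *Pfk* 1.20 at the highest).

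**Figure D3:**
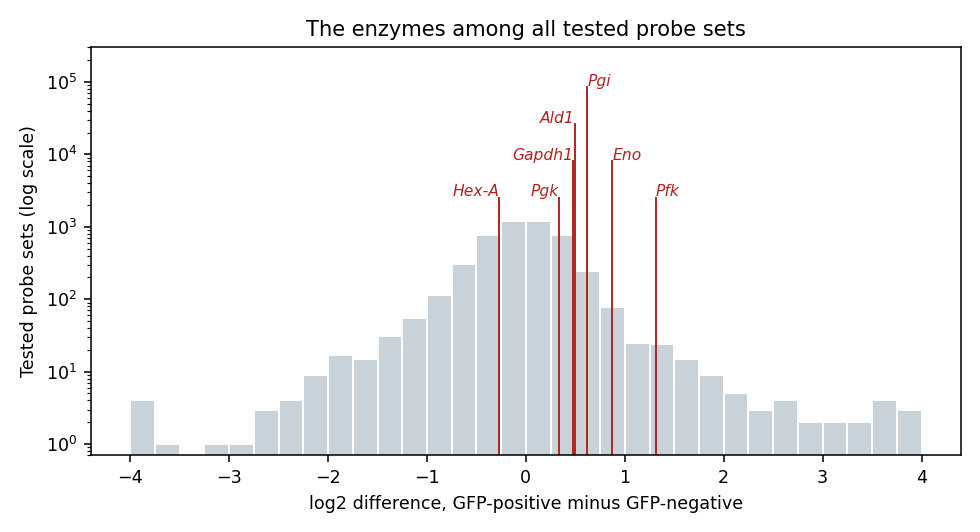
Number of tested probe sets (vertical axis, log scale) by log2 difference between GFP-positive and GFP-negative cells in steps of 0.25, values past the ends counted in the end bars, with each enzyme as a red line whose height carries no value. *Pfk* (1.31) lies in the right flank and *Hex-A* (-0.27) left of 0.

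The enzymes differed from array to array within a group as well. Each gene's log2 values were centred on its own mean and averaged over the 7 enzymes. The averages were 0.02, 0.37 and 0.43 on GFP-positive replicates 1, 2 and 3 and -0.45, -0.16 and -0.21 on GFP-negative ones. The gap between the nearest arrays of the groups, GFP-positive replicate 1 and GFP-negative replicate 2, was smaller than the spread within each group. GFP-positive replicate 3 was the brightest array for 4 of the 7 (*Pfk*, *Gapdh1*, *Pgk* and *Eno*), and GFP-negative replicate 1 was the dimmest for 5. Over the 6 arrays, *Gapdh1* and *Pgk* (Pearson r 0.93) and *Pfk* and *Eno* (0.90) ran most alike, and *Hex-A* ran against *Gapdh1* (-0.53). These correlations describe 6 points that share the split into groups.

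**Figure D4:**
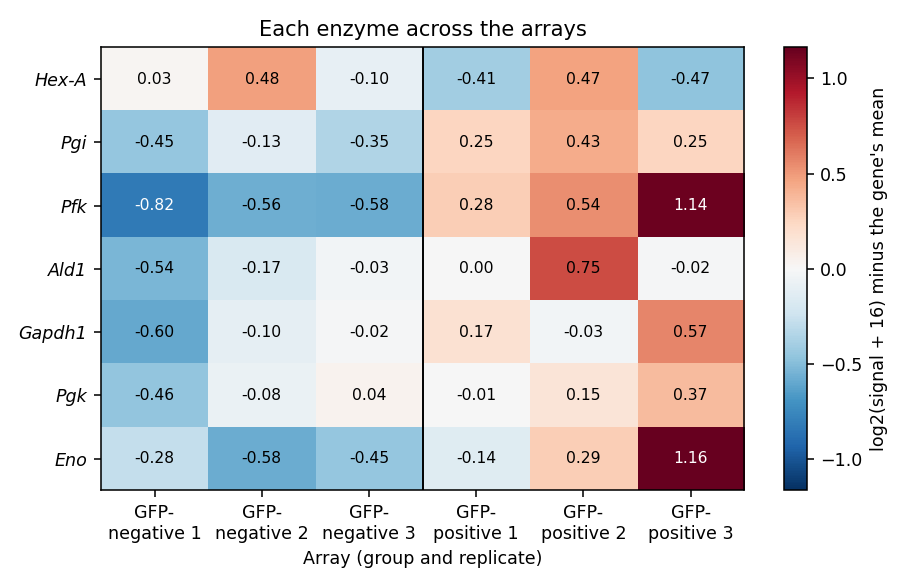
Log2(signal + 16) of each enzyme on each array minus the gene's mean over the 6 arrays, with GFP-negative arrays left and GFP-positive arrays right of the line. *Pfk* is below its mean on the 3 GFP-negative arrays and above it on the 3 GFP-positive ones, *Pfk* and *Eno* peak on GFP-positive replicate 3, and *Hex-A* is high on replicate 2 of both groups.

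GFP-positive replicate 3 also stood apart in the control probe sets, which cover the 5′ and the 3′ end of a few transcripts. Its 5′ signal relative to its 3′ signal was the highest of the 6 arrays for GAPDH (log2 -4.09, others -5.39 to -4.25), actin (-4.33, others -6.13 to -4.46) and eIF-4a (-4.82, others -7.38 to -5.41). Group means of this measure differed by less than the spread between arrays (GAPDH -4.74 and -4.71). Its part in the enzymes' values was not tested. Without this array *Pfk* had a log2 difference of 1.07.

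Genes of other cell types moved with the groups. Of the markers of adult muscle precursors, the myoblasts under the notum, *Him* (29.5 ± 11.9 on GFP-positive against 658 ± 140 on GFP-negative arrays) and *htl* (30.5 ± 4.48 against 410.2 ± 60.9) fell, with limma adjusted p-values of 0.000134 and 0.000271. Both were Present on 3 GFP-negative and 0 GFP-positive arrays and so entered the test through the group where they are high. With GFP-positive signals raised to the array's lowest signal called Present where they lay below it, they were 13.2-fold and 8.38-fold lower. Calls are made per probe set, so these folds are not strict lower bounds. They were 2 of the 4 tested markers of 6 on the array. The other 2 had positive differences that did not pass, *sns* (762 ± 81.3 against 532 ± 119, no overlap, log2 0.53, adjusted p = 0.36) and *vg* (log2 0.21, adjusted p = 0.793). The values of *sns* are those of the 1 tested of its 6 probe sets. The untested *twi* (51.3 ± 17.8 against 558 ± 41.7) and *zfh1* (70.7 ± 36.7 against 312 ± 48.9) had only Absent or Marginal calls. The summed signal of the list was 4236 to 7417 in GFP-positive and 5378 to 7030 in GFP-negative cells, most of it from *vg*, which the disc epithelium also expresses. The part of these cells in the enzymes' values was not tested. The hemocyte markers *Hml*, *Pxn*, *NimC1* and *eater* were Present on no array, and of the 2 tested of 6 on the array 0 passed (summed signal 494 to 636 in GFP-positive and 457 to 869 in GFP-negative cells). All 3 fat body markers on the array were Present on no array (summed signal 350.0 to 546 and 396 to 443). Of the tracheal and glial markers, 2 of 4 and 1 of 4 were tested and 0 passed. *verm*, a chitin deacetylase known from trachea, had a log2 difference of 0.61 (adjusted p = 0.218), and *Gasp* had 0.15 (adjusted p = 0.839). The summed tracheal signal was 4822 to 6159 in GFP-positive and 3342 to 4181 in GFP-negative cells. These groups did not overlap, and most of the sum came from *verm*. The untested *btl* (25.2 ± 5.51 against 40.2 ± 33.5) and *serp* (255 ± 172 against 141 ± 162) overlapped and were Present on no array. The part of tracheal genes in the enzymes' values was not tested. The summed glial signal was 333 to 610 and 244 to 338, and *repo*, the defining glial gene, had a difference of -0.09 (adjusted p = 0.937). *gcm*, a glial fate gene of the same list, was Present on 1 array and not tested, with mean signals of 156 ± 83.0 on GFP-positive and 41.3 ± 41.1 on GFP-negative arrays (SD, n = 3) and no overlap between the groups. The part of glial genes in the enzymes' values was not tested.

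The step between *Pgk* and *Eno* belongs to phosphoglycerate mutase, whose gene *Pglym78* is not among the 10. It had signals of 2778, 3170.4 and 4312 in GFP-positive and of 1006, 2344 and 2175 in GFP-negative replicates 1, 2 and 3. The groups did not overlap. The log2 difference was 0.96 (SE 0.33, limma adjusted p = 0.204). It passed with replicate number (limma adjusted p = 0.0281) or hybridization day (0.0337) as a block, but not with array lot as a block (0.249). Without GFP-negative replicate 1 it was 0.57. The list of paralogs and remaining steps had 12 genes on the array, of which 9 were Present on no array and 3 were tested, with a median of 0.15 and 0 called. *Pfrx*, whose enzyme makes and breaks fructose 2,6-bisphosphate, an activator of phosphofructokinase, had a difference of -0.18 (adjusted p = 0.798). No pair of paralogs could be compared within an array, because none had both members tested.

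**Figure D5:**
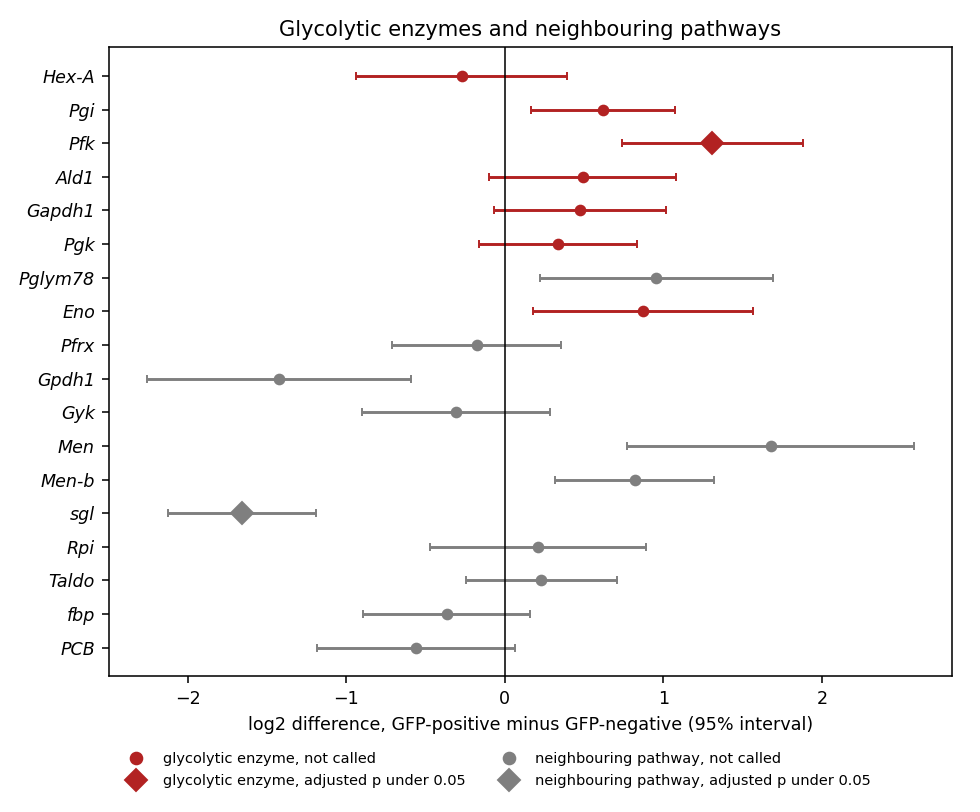
Log2 difference between GFP-positive and GFP-negative cells with its 95% interval for the 7 enzymes and *Pglym78* in pathway order, followed by genes of neighbouring pathways. *Pfk* (1.31) and *sgl* (-1.66) are the calls among these, and the intervals of *Pgi*, *Pglym78* and *Eno* lie above 0 without passing the adjusted threshold.

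Around the pathway, *sgl* fell in GFP-positive cells. It encodes UDP-glucose dehydrogenase, which makes the UDP-glucuronate that heparan sulfate chains are built from. Its signals were 377, 473 and 496 in GFP-positive and 1488, 1391 and 1438 in GFP-negative replicates 1, 2 and 3. The groups were far apart, with a log2 difference of -1.66 (SE 0.21, limma adjusted p = 0.00165), and the call held without any 1 array. The trehalose and glycogen list that holds *sgl* had 8 tested of 15 genes on the array, with a median of -0.18. Among these 8, *sgl* was the 1 gene called, 0 rose, and the other 7 missed the threshold.

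No gene of the branch to glycerol and no malic enzyme gene passed in the comparison of all 6 arrays with group as the only term. *Gpdh1*, the glycerol-3-phosphate dehydrogenase gene, had signals of 105, 186 and 69.7 in GFP-positive and of 229, 320.4 and 472 in GFP-negative replicates 1, 2 and 3. It was Present on every GFP-negative and no GFP-positive array, and it passed the detection filter through the GFP-negative arrays alone. The log2 difference was -1.42 (interval -2.26 to -0.59, limma adjusted p = 0.0826). It passed with replicate number (limma adjusted p = 0.0263), hybridization day (0.0414) or array lot (0.0385) as a block. With no block it passed under median scaling (adjusted p = 0.0339), without GFP-negative replicate 1 (0.0468) and without GFP-positive replicate 2 (0.0479). *Gyk*, the other tested gene of 6 on the array, had a difference of -0.31 (adjusted p = 0.665). All 6 belong to the glycerol branch, so the lactate branch of the same list was not measured here. *Men*, a malic enzyme gene that turns malate into pyruvate, had signals of 392, 655 and 612 in GFP-positive and of 231, 70.9 and 229 in GFP-negative replicates 1, 2 and 3. It was Present on 3 GFP-positive arrays and 1 GFP-negative array, so it entered the test through the group where it is high. The difference was 1.68 (limma adjusted p = 0.0603). It passed with replicate number (0.0102) or hybridization day (0.0337) as a block, but not with array lot (0.13). With no block it passed with a pseudocount of 64 (0.0455) and without GFP-negative replicate 1 (0.0319). The related *Men-b* had 1963, 2322 and 2619 against 1058, 1361 and 1479, which is 0.82 on the log2 scale (adjusted p = 0.0949). It passed with replicate number (0.0395) or hybridization day (0.0322) as a block, but not with array lot (0.187). The groups of both genes did not overlap, and a second probe set of each was Present on no array.

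The remaining lists of glucose metabolism held no call. Of the genes from pyruvate through the citrate cycle, malic enzymes included, 18 of 22 on the array were tested and 0 passed, with a median of 0.12. The pentose phosphate list had 4 tested of 6, 0 called and a median of 0.15, led by *Taldo* (0.23, adjusted p = 0.69), the transaldolase gene, and *Rpi* (0.21, adjusted p = 0.815). Gluconeogenesis had 3 tested of 5, 0 called and a median of -0.37, led by *PCB*, pyruvate carboxylase (-0.56, adjusted p = 0.416), and *fbp*, fructose bisphosphatase, which opposes phosphofructokinase (-0.37, adjusted p = 0.542).

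Of 17 regulators on the array 10 were tested and 0 passed, with a median of 0.05. *sima*, the fly's hypoxia-inducible factor, had a difference of 0.62 (limma adjusted p = 0.636) and *Akt*, a kinase of insulin signalling, of -0.49 (adjusted p = 0.439). *ERR* was Present on 1 of 6 arrays and was not tested. Of the hypoxia and stress genes, 6 of 9 on the array were tested and 0 passed, with a median of 0.23. The largest differences in size were those of *puc*, a phosphatase of JNK signalling (-0.79, adjusted p = 0.413), and *ImpL2*, an insulin-binding protein (0.44, adjusted p = 0.554). *puc* was Present on 3 GFP-negative arrays and 1 GFP-positive array, so it entered the test through the group where its mean is higher. Summed over this list, signals reached 38365 to 41742 in GFP-positive and 29927 to 38297 in GFP-negative cells, which narrowly did not overlap. Most of the sum came from *Hsp27* (log2 0.32, limma adjusted p = 0.451) and *Hsp26* (0.06, adjusted p = 0.956). The part of these genes in the enzymes' values was not tested.

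The genes whose values followed the average profile of the 7 enzymes most closely over the 6 arrays were *Ufd4* (Pearson r 0.99), *Men-b* (0.98), *PIG-U* (0.98), *Usp12-46* (0.97) and *TfAP-2* (0.97). They came from 3037 named genes Present on all arrays, of which 35 had r of 0.9 or more. These are descriptions over 6 points that share the split into groups. None of the 5 was called between the groups (limma adjusted p from 0.0949 for *Men-b* to 0.675 for *Ufd4*).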

How the data were processed

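RNA of 3 GFP-positive and 3 GFP-negative samples was measured on an Affymetrix Drosophila genome array. Per the file headers, the deposited intensity is the Signal of the statistical algorithm, scaled on each array over all probe sets to a target of 500. The deposited detection p-values (Alpha1 0.04, Alpha2 0.06, Tau 0.015 per the file headers) were used through their calls. The sources used here give no genome build, so no coordinates are printed. The deposited series table held the same intensity values for all 14010 probe sets.

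Gene symbols came from the platform annotation (1 symbol for 12443 probe sets, several for 327, none for 1196), updated by Entrez number. Control probe sets were not tested. Differences were tested with limma 3.58.1 in R 4.3.3 on log2(signal + 16), with eBayes' trend over intensity, no term but the group and two-sided p-values. The code was checked on simulated arrays. The 3 arrays per group limit the precision.

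Genes named are all enzymes, each called gene of a neighbouring list or otherwise its 2 largest differences, and the 5 most alike over the arrays. The enzymes and lists were chosen with earlier results of these data known. Deviations of same-numbered arrays from their group means correlated at 0.402, 0.102 and 0.122 over 4943 probe sets for replicates 1, 2 and 3. GFP-negative replicate 2 correlated more with GFP-positive replicate 3 (0.221). The data thus set apart only the pair of replicate 1, which was hybridised on day 1. They do not settle the pairing of replicates 2 and 3, and the labels do not say what a number marks. Fits with replicate number as a block rest on that pairing. Alternatives changed the pseudocount, filter, scaling, trend, block and arrays.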

Additional observations from a re-analysis of the deposited data

Results flagged for a closer look

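The control probe set for the 3′ end of GAPDH, which the comparisons of the report leave out, was brighter on every GFP-positive array. Its signals were 32264, 27244 and 31800.0 in GFP-positive and 25516, 20892 and 19183 in GFP-negative replicates 1, 2 and 3, a log2 difference of 0.48. A two-sided exact permutation test gave p = 0.1, the smallest that 3 arrays against 3 can give. The difference of *Gapdh1* was of like size (0.48), and the sources used here do not name the GAPDH gene that the control covers. The controls for the 3′ ends of actin (log2 0.16) and eIF-4a (0.32) were also brighter on every GFP-positive array. The groups overlapped in the middle and 5′ controls of GAPDH (log2 differences of 0.55 and 0.46, p = 0.3 and 0.5 by the same exact permutation test), of actin (0.13 and 0.38, exact p = 0.7 and 0.6) and of eIF-4a (0.53 and 0.92, exact p = 0.3 and 0.5).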

How the results depend on the processing

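Of 126 values of the 7 enzymes under 18 alternatives, 120 kept their direction and their side of the threshold, 6 lost the call and 0 turned. All 6 were of *Pfk*, which kept its direction with a log2 difference of 1.31 with no filter (adjusted p = 0.052), 0.98 in the lot of 3 arrays (0.436) and 1.07 to 1.50 without single arrays, where 2 of 6 fits kept the call (adjusted p from 0.0302 to 0.0869). The number of enzymes called was 1, but 0 with no filter and in the lot of 3 arrays, and 0 to 1 without single arrays. The median of the 7 lay between 0.35 and 0.62. The lot of 3 arrays leaves 1 residual degree of freedom, and where a fit leaves 1 array of a group, that array is assumed to vary like the others.

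Over the whole array, 148 probe sets were called, 97 with no filter (of 13966), 50 among probe sets Present on all 6 arrays (of 3567), 257 with the replicate block, 229 with day as a block, 76 in the day 2 arrays, 84 in the lot of 3 and 69 to 153 without single arrays. With the replicate block, no enzyme other than *Pfk* (adjusted p = 0.00256) was called. The block called 1 gene in the list of paralogs and remaining steps, 1 in the lactate and glycerol list and 2 in the list from pyruvate to the citrate cycle, where there had been 0, and left the count of the other 5 glucose metabolism, regulator and stress lists as it was. Marker lists were not counted under the block. The pair of day 1 and the lot of 2 arrays allow no fit. No enzyme had a second probe set to average, and the series table equals the array files, so neither alternative gave a value. Probe sets near the lowest signals called Present (29.4 to 36.8 units) have their differences understated.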
